A study of Mus musculus with 4 samples.

Results

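Glutathione S-transferase (GST) genes were examined in mouse embryonic fibroblasts with and without SmcHD1, a chromatin protein of the SMC superfamily that helps to keep the inactive X chromosome silent. The 9 genes described are Gstp1, Gstp2, Gsta4, Gstm1, Gstm2, Gstm5, Gstt1, Gsto1 and Mgst1, taken by symbol from a table of 22691 genes. The fibroblasts came from female fetuses at E13.5. In the WT group Smchd1 was intact (+/+), and in the MD1 group both copies of Smchd1 carried the MD1 allele (MD1/MD1). All fibroblasts of both groups were heterozygous for Xist deltaA, from mothers of the C57BL6/J strain and fathers that were F1 hybrids of JF1 and C57BL6/J, and each group had 2 libraries. No label says whether the 2 libraries of a group came from separate fetuses. Smchd1 itself (chromosome 17, 71693834 to 71824683, mm9) had a level of 14.7 FPKM (defined below) in WT and of 1.94 FPKM in MD1, which is 13.1% of the former.

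GSTs join the tripeptide glutathione to reactive, electrophilic compounds, which makes these compounds soluble and ready for export. The cytosolic enzymes fall into classes named by Greek letters, among them alpha (Gsta), mu (Gstm), pi (Gstp), theta (Gstt) and omega (Gsto), while Mgst1 belongs to a separate family of membrane proteins. Many GST genes are induced by the transcription factor NRF2 under oxidative or chemical stress, and fibroblasts express several of them.

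Total RNA was given as FPKM, fragments per length of transcript and per sequencing depth, with 1 mean per gene and group and no value per library. The differences below therefore have no replicate error, no test was possible, and 1 library could set any group mean. Gstp2, Gsta4 and the other members were singled out from these same FPKM values, so their levels are a description. Autosomal JF1 alleles come from the hybrid fathers in inherited blocks, and none of the 9 genes had allele-specific values. A difference in these alleles, or between cultures, cannot be told apart from the Smchd1 genotype.

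The widest contrast lay between Gstp1 and Gstp2, neighbouring pi class genes whose sequences are nearly the same. Their coding sequences in the C57BL/6J reference (GENCODE annotation on GRCm38, stop codon left out) were both 630 bases long and identical at 618 of them (98.1%). Of the 12 differing bases, 6 fell in the first 90, and the longest identical run was 300 bases. These first 90 coding bases are shown because no other stretch of that length holds more differences, with the bases that differ between the copies in capitals.
Gstp1: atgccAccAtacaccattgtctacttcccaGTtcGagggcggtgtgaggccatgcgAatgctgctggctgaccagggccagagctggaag
Gstp2: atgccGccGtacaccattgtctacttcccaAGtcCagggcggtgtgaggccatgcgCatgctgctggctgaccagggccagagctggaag
The sequences before the start of transcription were less alike. Over the 250 bases before each start, 207 of 265 alignment columns were identical (78.1%), with gap columns counted as not identical. The coding alignment had no gaps, so the 2 percentages are not on quite the same footing. They are shown 5′ to 3′ on the minus strand, Gstp1 from chr19:4037913-4038162 and Gstp2 from chr19:4042222-4042471 (RefSeq, GRCm38), with the motif TGAGTCA in capitals. TGAGTCA is bound by AP-1 and by NF-E2 family factors.
Gstp1: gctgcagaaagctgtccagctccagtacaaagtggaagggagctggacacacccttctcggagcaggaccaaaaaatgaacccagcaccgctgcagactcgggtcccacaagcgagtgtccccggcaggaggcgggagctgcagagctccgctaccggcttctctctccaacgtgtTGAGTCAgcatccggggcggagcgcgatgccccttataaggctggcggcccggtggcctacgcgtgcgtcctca
Gstp2: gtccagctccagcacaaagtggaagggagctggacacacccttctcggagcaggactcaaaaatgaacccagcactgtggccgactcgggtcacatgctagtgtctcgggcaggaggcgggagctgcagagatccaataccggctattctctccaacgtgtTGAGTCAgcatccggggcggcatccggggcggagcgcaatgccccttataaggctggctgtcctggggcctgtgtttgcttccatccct
Both copies held TGAGTCA, 74 bases before the start in Gstp1 and 89 bases before it in Gstp2. On either strand, this motif occurred in 5.20% of 32851 promoter windows of the same table, each with 250 bases before and 50 after a start.

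Gstp1 (chromosome 19, 4035411 to 4037912, mm9, minus strand) encodes the main pi class enzyme, and had 66.3 FPKM in WT and 64.9 in MD1. Gstp2 (chromosome 19, 4040288 to 4042221, minus strand), which lies 2375 bases from Gstp1, had 40.3 FPKM in WT and only 0.195 in MD1. The MD1 value of Gstp2 was thus 0.484% of its WT value, while that of Gstp1 was 97.8%. On the scale of log2 of (FPKM + 1), used here for every ratio of MD1 over WT, the values were -5.11 for Gstp2 and -0.031 for Gstp1. Among the 11399 genes with a mean FPKM of at least 1 and a value above 0 in both groups, 4 had a lower ratio than Gstp2.

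Because the copies share sequence, their FPKM depends on how shared reads were assigned. Of the 50-base windows of the Gstp2 transcript, 64.3% also occurred in a Gstp1 transcript, and 62.3% of those of Gstp1 occurred in Gstp2. For windows of 100 bases the shares were 54.6% and 52.8%. A pseudogene, Gstp-ps, also shared windows with both copies. Added together, which depends less on how reads were divided between the copies, Gstp1 and Gstp2 had 106.7 FPKM in WT and 65.1 in MD1, a log2 ratio of -0.70. MD1 minus WT was -40.1 FPKM at Gstp2 and -1.45 FPKM at Gstp1, so by arithmetic most of the difference in the sum lies in the Gstp2 value. That split uses the separate values, and so depends itself on how shared reads were assigned. The part that read assignment had in the values of the separate copies was not tested.

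**Figure D1:**
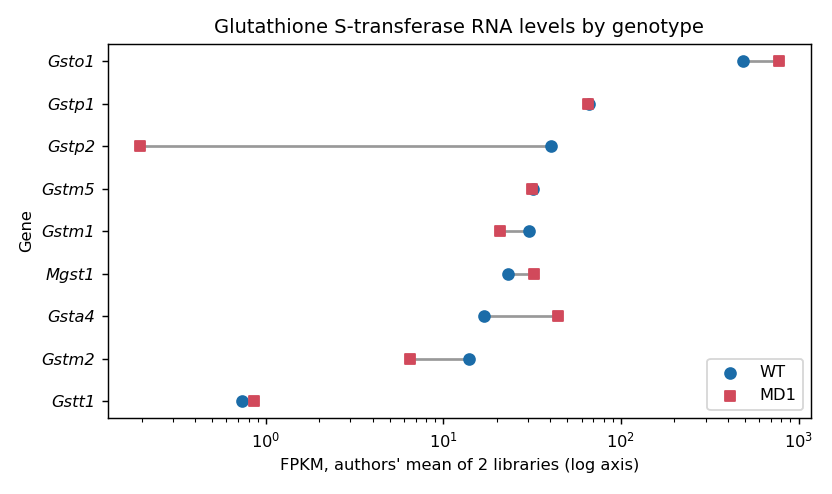
FPKM (log axis) of the 9 genes in WT (blue circles) and MD1 (red squares), each point the authors' mean of 2 libraries, with no error available. Gstp2 is at 40.3 in WT and 0.195 in MD1, while Gstp1 and Gstm5 have nearly the same value in both groups.

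**Figure D2:**
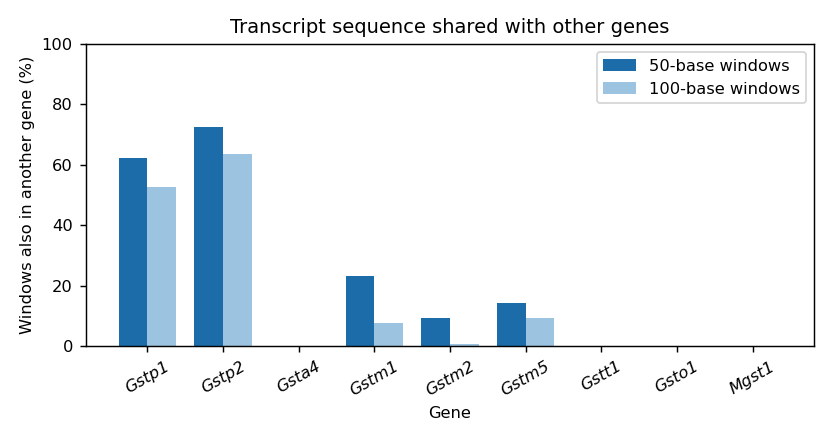
Percentage of windows of 50 and 100 bases of each gene's transcript that also occur in a transcript of another gene in GENCODE. Gstp1 and Gstp2 share most of their windows, and Gsta4, Gstt1, Gsto1 and Mgst1 share none.

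The mu class genes, whose enzymes act on a broad range of electrophiles, lay together on chromosome 3 and were unequal in their ratios. Gstm2 (107784620 to 107789354, mm9) had 13.9 FPKM in WT and 6.52 in MD1, a log2 ratio of -0.99. This ratio lies just inside the 2-fold bound, although the FPKM values themselves differed 2.14-fold. Gstm1 (107815168 to 107820891) had 30.4 and 20.9 FPKM, a log2 ratio of -0.52. Gstm5 (107698772 to 107701603) had 32.0 and 31.7 FPKM and a log2 ratio of -0.015, so the 3 mu class members ran from about equal to more than 2-fold lower in FPKM. Their sum was 76.4 FPKM in WT and 59.1 in MD1.

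The coding sequences of Gstm1 and Gstm2 were 85.9% identical. That of Gstm5 was 70.0% identical to Gstm1 and 71.1% to Gstm2, with gap columns counted as not identical. Windows of 50 bases were shared with other genes in 23.1% of the Gstm1 transcript, mostly with the pseudogene Gstm2-ps1, in 9.36% of Gstm2 and in 14.4% of Gstm5. At 100 bases these shares were 7.73%, 0.622% and 9.34%, so far fewer windows were shared than in the pi class pair. Gstm5 overlaps 4933431E20Rik on the other strand. With both strands searched, this was the only gene that shared windows of 50 or 100 bases with Gstm5. The library kit keeps strand, but whether the counting used it is not given in the sources used here, so the value of Gstm5 is uncertain. 4933431E20Rik had 0.609 FPKM in WT and 0.333 in MD1.

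Gsta4 (chromosome 9, 78039773 to 78057156, mm9) was the member with the highest ratio. It encodes an alpha class enzyme that conjugates hydroxynonenal, a product of lipid peroxidation. Its level was 16.8 FPKM in WT and 44.0 in MD1, 2.61-fold higher, with a log2 ratio of 1.33 that was exceeded by 79 of the 11399 genes above. None of its 50-base windows occurred in another gene, and no other gene of the table overlapped it.

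Gsto1 (chromosome 19, 47929479 to 47939278, mm9), the omega class gene whose enzyme reduces dehydroascorbate and mixed disulfides, was by far the most abundant member. It had 489.9 FPKM in WT and 776.7 in MD1, a log2 ratio of 0.66, and made up 68.7% and 79.4% of the summed FPKM of the 9 genes. With Gsto1 in it, this sum was 713.5 FPKM in WT and 977.9 in MD1, and without it 223.6 and 201.2, so the direction of the sum rests on Gsto1. MD1 minus WT was -22.4 FPKM for the sum without Gsto1 and -40.1 FPKM for Gstp2 alone. The lower sum without Gsto1 thus rests in turn on the Gstp2 value. Mgst1 (chromosome 6, 138089058 to 138105273), a trimeric enzyme of the endoplasmic reticulum and the outer mitochondrial membrane, had 23.0 and 32.2 FPKM and a log2 ratio of 0.47. Gstt1 (chromosome 10, 75246558 to 75261329), a theta class gene whose enzyme acts on small halogenated compounds, had 0.739 and 0.862 FPKM. Gstt1 was therefore under the minimum mean FPKM of 1 and is left out of the counts below. The sequences of Gsto1, Mgst1 and Gstt1 shared no 50-base window with another gene.

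Ordered by FPKM, Gsto1 was number 1 and Gstp1 number 2 in both groups. Gstp2 was number 3 of the 9 in WT and number 9 in MD1, and Gsta4 was number 7 in WT and number 3 in MD1. Of the 8 genes that passed the FPKM minimum, Gstp2 was at least 2-fold lower in MD1 and Gsta4 at least 2-fold higher. Gstp2 passed this minimum through its WT value alone. Among all 11399 genes 2.81% were at least 2-fold lower and 1.39% at least 2-fold higher. The median log2 ratio of the 8 genes was -0.023, beside 0.0058 over all genes that passed, and 5 of the 8 were below 0, as were 49.2% of all. The genes were picked from the same values, so nothing is read from these counts. Here and below, 2-fold means 2-fold on the scale of FPKM + 1, which understates the differences of low genes.

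**Figure D3:**
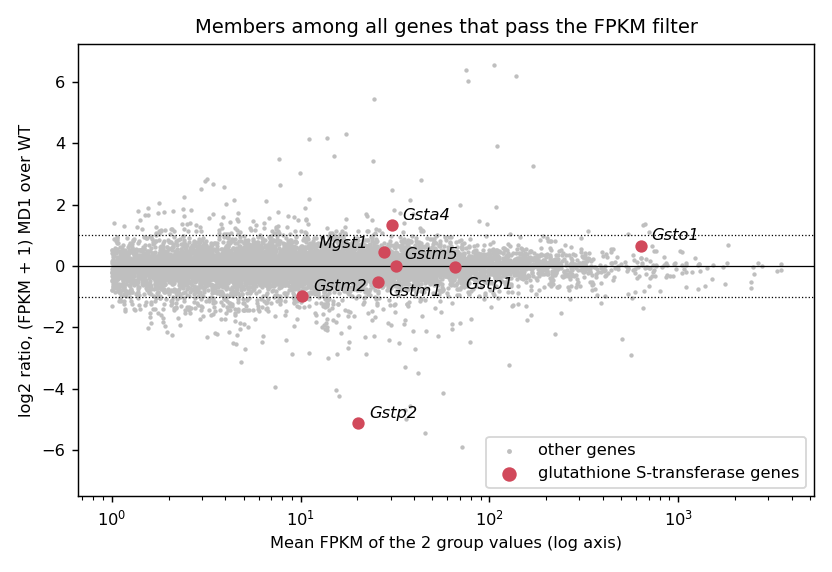
Log2 ratio of MD1 over WT against mean FPKM (log axis) for the 11399 genes that passed the FPKM minimum (grey) and the 8 members among them (red), with dotted lines at 2-fold. Gstp2 at -5.11 lies far below the bulk of genes, Gsta4 at 1.33 above the upper line, and Gstm2 at -0.99 on the lower one.

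On the scale of FPKM + 1, no neighbouring gene had a ratio as wide as that of Gstp2 or Gsta4. Both were singled out from these same values, so this was largely set beforehand. Among all genes only 2.81% were at least 2-fold lower and 1.39% higher, so nothing is read from the counts of neighbours at 2-fold. Within 500 kb of Gstp1 and Gstp2, 28 other genes passed the FPKM minimum, with log2 ratios of -0.69 to 0.43 and a median of -0.12, and 0 of them were 2-fold apart. Within 500 kb of Gsta4 there were 9 such genes, from -0.13 to 0.93 with a median of 0.11, again with 0 at 2-fold. Below 0 were 2 of these 9 and 17 of the 28 near Gstp1 and Gstp2, beside 49.2% of all genes. In FPKM without the added 1, Mb21d1 (0.741 in WT and 2.31 in MD1) was wider apart than Gsta4. Around the mu class members 16 genes had a median of 0.00034, and 8 were below 0. There, Sort1, a sorting receptor gene, was lower (11.1 FPKM in WT, 4.52 in MD1) and Slc6a17, a transporter gene, higher (1.23 and 3.86). Without the added 1, Slc6a17 and Gstm7 (1.70 FPKM in WT, 0.516 in MD1) were also wider apart than Gsta4. The neighbours of Gstt1, Gsto1 and Mgst1 numbered 15, 6 and 3, with medians of -0.097, 0.065 and 0.098 and 0 at 2-fold. Of these, 10, 3 and 1 were below 0.

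**Figure D4:**
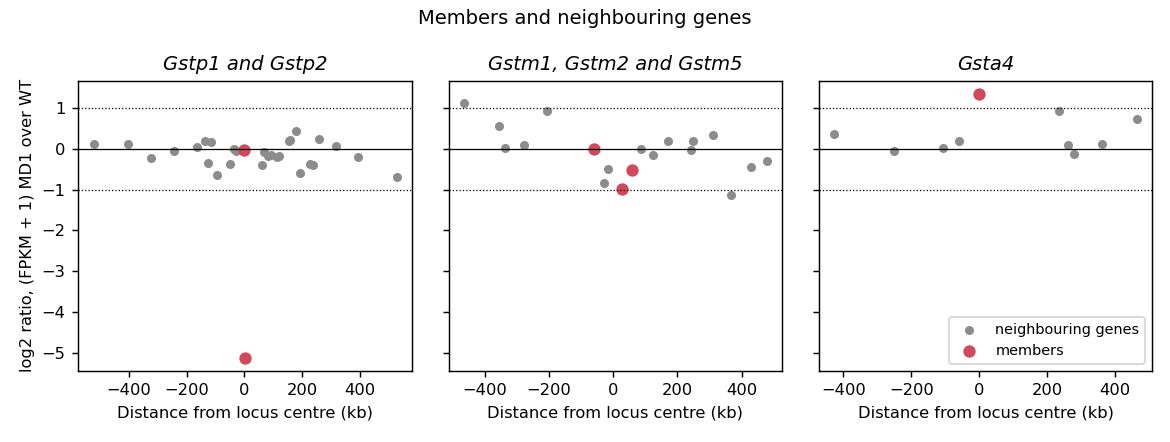
Log2 ratio of MD1 over WT for members (red) and other genes that passed the FPKM minimum within 500 kb (grey), by distance from the centre of the locus in kb. Gstp2 at -5.11 stands next to Gstp1 at -0.031 and to 28 neighbours between -0.69 and 0.43.

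Beyond TGAGTCA, searches for 2 further motifs covered the promoter windows of 8 of the 9 genes (10 windows in all), with no entry for Gsta4. TGACNNNGC, the core of the antioxidant response element to which NRF2 binds with small Maf proteins, occurred on either strand in Gstm5 and Mgst1, and in 12.4% of all windows. GCGTG, the core bound by the aryl hydrocarbon receptor, occurred in Gstm1, Gstm5 and Gstp1, and in 32.4% of all windows. TGAGTCA was also found in Gstm5. In Gstm5 both GCGTG matches overlapped one of the other motifs. These are matches of letters in the reference, not measured binding.

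Further cytosolic transferases reached at most 13.1 FPKM in these cells. Of 17 further cytosolic GST and related genes, 15 were in the table and 9 passed the FPKM minimum, with 0 lower and 0 higher by 2-fold and a median log2 ratio of -0.097. Gstm7, another mu class gene of the same cluster, had 1.70 FPKM in WT and 0.516 in MD1, and Gstk1, the mitochondrial and peroxisomal kappa class gene, had 1.62 and 3.49. In FPKM without the added 1, Gstm7 was 3.28-fold lower and Gstk1 2.15-fold higher. The median was -0.17 with a pseudocount of 0.1 and -0.0024 after quantile normalization. Of 5 further genes of the membrane family 4 passed, and Ptges, which makes prostaglandin E2, was at least 2-fold higher (3.98 and 11.3 FPKM). Of the 4, 3 had a ratio above 0 and 1 below, with a median of 0.52. The 1 below was Mgst3, the most abundant of them (40.8 FPKM in WT and 25.9 in MD1). All 5 summed to 48.3 FPKM in WT and 41.9 in MD1.

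The next lists hold genes that make, recycle or use glutathione. Of 18 genes of glutathione synthesis and turnover 14 passed, 0 at 2-fold in either direction, with a median of 0.12. Gclc and Gclm, the catalytic and modifier subunits of the rate-limiting enzyme, had 15.6 and 26.3 FPKM in WT and 20.3 and 35.7 in MD1. The outermost were Dpep1, a dipeptidase (2.72 and 0.870 FPKM), and Oplah, oxoprolinase (2.76 and 1.08), which were 3.13-fold and 2.56-fold lower in FPKM without the added 1. All 5 glutathione peroxidase genes that passed had a ratio below 0, beside 49.2% of all genes, with 0 at 2-fold and a median of -0.14. Of these, Gpx8, Gpx7 and Gpx1 were nearest to 0, at -0.021, -0.089 and -0.14. Among the others, Gpx3, the secreted enzyme, had 43.4 and 21.9 FPKM, and Gpx4, which reduces lipid hydroperoxides, 106.8 and 92.5.

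Other redox and export genes were within 2-fold on this scale. In the list of glutaredoxins, thioredoxins and glyoxalases, 11 of 11 passed with a median of 0.26 and 0 at 2-fold. Esd, an esterase that releases glutathione from S-formylglutathione, had 147.0 and 260.2 FPKM, and Glo1, glyoxalase, had 58.0 and 31.9. Of 7 genes for export of conjugates 6 passed with a median of 0.093 and 0 at 2-fold. In it Abcc4 had 3.11 and 5.92 FPKM and Abcg2 50.8 and 32.5.

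NRF2, encoded by Nfe2l2, had 46.1 FPKM in WT and 57.1 in MD1, a log2 ratio of 0.30. All 9 genes of its regulators passed, with 0 at 2-fold and a median of 0.020, and its relative Nfe2l1 had 94.3 and 71.8 FPKM. Of 20 known NRF2 targets outside the GSTs, 17 had a ratio above 0, beside 50.8% of all genes, with a median of 0.37. Of the 17, Hmox1 (206.8 and 208.4 FPKM), Cbr1 and Osgin1 were nearest to 0, at 0.011, 0.012 and 0.019. Some genes of this list, among them Gclc, Gclm and Esd, are also in the lists above. The activity of NRF2 was not tested. In this list 2 were at least 2-fold higher, Cbr3, a carbonyl reductase (3.93 and 17.2 FPKM), and Blvrb, biliverdin reductase B (14.7 and 35.5). Ephx1, microsomal epoxide hydrolase, was at least 2-fold lower (127.0 and 59.6 FPKM). Among all genes 1.39% were at least 2-fold higher and 2.81% lower. Also below 0 were Aox1 (1.83 and 0.504 FPKM, 3.63-fold lower without the added 1) and Ftl1 (1252 and 1106 FPKM).

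Among 20 genes of other detoxification steps 11 passed, of which 3 were at least 2-fold lower and 0 higher, with a median of -0.10. Aldh1a1, a retinaldehyde dehydrogenase, had levels of 37.3 and 6.72 FPKM, its relative Aldh1a7 5.13 and 0.963, and the alcohol dehydrogenase gene Adh1 7.28 and 1.73. Other dehydrogenase genes of the list were nearer to equal or higher, with Aldh2 at 61.3 and 56.2 FPKM, Aldh3a2 at 15.5 and 14.3 and Adh7 at 0.955 and 1.79. Over all 10 of these lists, with each gene counted once, 90 of 116 genes passed. Of these, 4 were at least 2-fold lower (4.44%) and 3 at least 2-fold higher (3.33%), beside 2.81% and 1.39% of all genes.

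**Figure D5:**
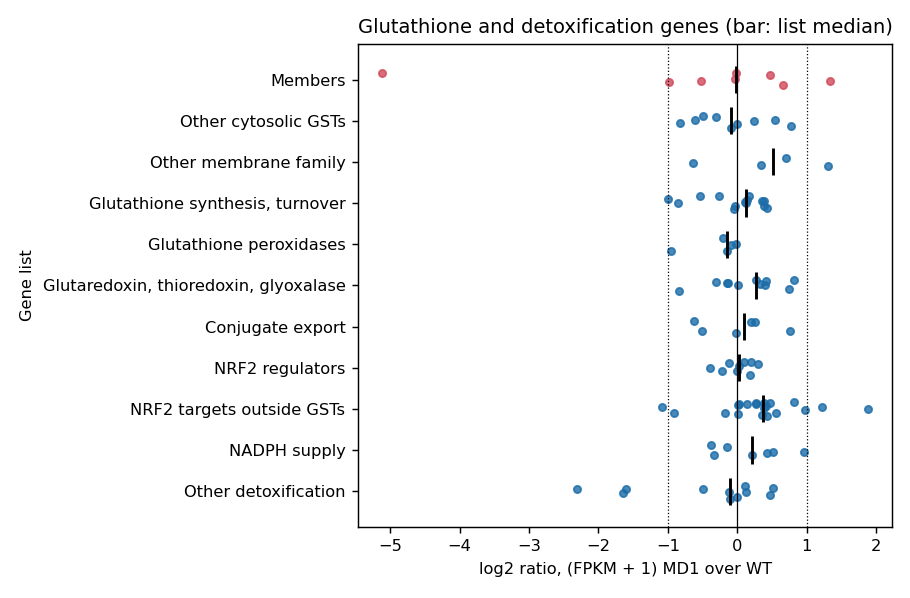
Log2 ratio of MD1 over WT for each gene that passed the FPKM minimum, by gene list, with the members in red, the list median as a black bar and dotted lines at 2-fold. The list medians outside the members lie between -0.14 for glutathione peroxidases and 0.52 for the other membrane family genes.

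G6pdx (X, 71654825 to 71674500, mm9) makes NADPH, with which glutathione is kept reduced, and is the X-linked gene of these lists, so its reads could be assigned to alleles in each library. Xist deltaA came from the mothers, per the labels, and as background, an X that carries it is not silenced, so that X inactivation falls on the paternal X. Its paternal (JF1) reads numbered 0 of 1060 and 1 of 1754 in the WT libraries, and 1351 of 2889 and 1607 of 3567 in the MD1 libraries. The paternal share was 0%, which allows up to 0.283%, and 0.057% in WT, and 46.8% (Wilson 95% interval 44.9% to 48.6%) and 45.1% (43.4% to 46.7%) in MD1. The means were 0.029% ± 0.040 in WT and 45.9% ± 1.21 in MD1 (SD, n = 2 each). The difference of 45.9 points far exceeded this spread, while p was 0.333 by an exact permutation test (two-sided), the lowest value possible with 2 libraries in each group. Intervals cover counting error only. The shares of other X-linked genes are not described here, so nothing particular to G6pdx is read from its share.

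Total G6pdx RNA was 39.4 FPKM in WT and 77.7 in MD1, 1.97-fold higher. Multiplied by the pooled shares of 0.036% and 45.8%, this gave a maternal part of 39.4 FPKM in WT and 42.1 in MD1 and a paternal part of 0.014 and 35.6. The other genes of NADPH supply are autosomal and were nearer to equal. In this list of 7 genes the median log2 ratio was 0.21, with 0 at 2-fold, and Pgd, a later enzyme of the same pathway, had 99.9 and 143.1 FPKM.

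All 9 fibroblast markers passed the FPKM minimum, with a median log2 ratio of 0.0065 and summed levels of 5499.9 FPKM in WT and 4549.5 in MD1. Of these, 5 had a ratio above 0 and 4 below. Vim had 2789.6 and 2802 FPKM, Col1a1 1688 and 1081, Col1a2 848.7 and 477.3, Pdgfra 4.79 and 9.25 and Fap 3.003 and 0.890. Thy1 had 68.9 and 97.3 FPKM, Pdgfrb 65.4 and 44.3, Dcn 25.3 and 28.6 and Lum 5.81 and 8.87. All 4 skeletal muscle markers that passed, of 5, were at least 2-fold lower in MD1, beside 2.81% of all genes, with summed levels of 124.5 and 36.3 FPKM over the 5. Of 4 smooth muscle markers 2 were at least 2-fold lower, with sums of 5378 and 3342 FPKM over the 4. The 2 were Myh11 (25.6 and 2.31 FPKM) and Cnn1 (200.8 and 84.3). Most of the smooth muscle sum was Acta2 (3015 and 1826 FPKM) and Tagln (2136 and 1429), both lower by less than 2-fold. Defining markers of hepatocytes, which are rich in GSTs, were at or near 0, with 7 genes summing to 2.07 and 1.58 FPKM and Alb listed at 0 in WT. The 9 macrophage markers in the table summed to 130.9 and 110.0 FPKM, the 5 endothelial ones to 7.80 and 4.93, the 5 epithelial ones to 71.3 and 81.1, the 4 neural ones to 109.7 and 122.9 and the 4 adipocyte ones to 14.4 and 6.95. Most of the macrophage sum was Lyz2 (99.4 and 86.8 FPKM) and most of the epithelial sum Krt19 (51.4 and 56.4). Pparg made up nearly all of the adipocyte sum (14.4 and 6.93). Most of the endothelial sum was Emcn (4.12 and 1.58 FPKM) and Kdr (3.26 and 3.02). Epcam and Cdh1, of the epithelial list, were near 0. In the neural list Nes (82.5 and 65.6) and Sox2 (1.09 and 0.841) were lower, and Tubb3 (16.4 and 31.6) and Stmn2 (9.62 and 24.8) higher. Of all these markers, 4 of skeletal muscle, 2 of smooth muscle, Fap of the fibroblasts and Stmn2 of the neural list were 2-fold apart. The part of such cells in the GST values was not tested, and fewer cells of a type and less RNA per cell cannot be told apart in bulk RNA.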

How the data were processed

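Polyadenylated RNA was sequenced from 4 libraries, 2 per genotype, with a stranded kit, per the labels' protocols. The authors deposited total expression as FPKM, 1 mean per group. They deposited allele-specific reads of 952 X-linked genes as counts per library (521768 to 806626 in all) and the JF1 share of these reads as a fraction. The submitters' processing notes list mm9, Cuffdiff and Cufflinks 2.2.1 without saying what each was used for. Aligner, annotation and read length: not given in the sources used here. The depth behind FPKM is unknown.

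Each ratio was log2((MD1 FPKM + 1) / (WT FPKM + 1)). Genes were counted where neither group was at 0 and the FPKM of the groups averaged at least 1. The added 1 understates the change of low genes. A gene was counted as 2-fold apart past 1 or -1 on this scale. The ratio calculation was run on simulated fold changes without noise and compared with the same formula, which checks the code and not the ratios. Starts were moved up by 1, after which 9510 spans equalled RefSeq gene lengths, against 620 as given.

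JF1 reads of G6pdx were recovered as share times reads, whole within 0.001. Its numbered libraries were also compared as pairs, though no source ties equal numbers together. Windows of 50 and 100 bases were matched on both strands against all GENCODE transcripts (GRCm38), taking the longest protein-coding transcript of each member. All 9 members matched by symbol there. Coding sequences were aligned with Biopython 1.88. Window lengths and motifs were chosen after the data were seen.

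The members and gene lists were chosen with earlier results of these data known. Named are Smchd1, every member and, of each pathway list, the genes 2-fold apart, at most 4, or else the 2 with the widest ratio. Neighbours within 500 kb are named if 2-fold apart. Gclc, Gclm, Gpx1, Gpx7, Gpx8, Aldh2, Aldh3a2, Adh7, Mgst3, Hmox1, Cbr1, Osgin1, Aox1, Ftl1 and Mb21d1 were added after their values were seen. So were the markers and 4933431E20Rik, and, after their matches were seen, Gstp-ps and Gstm2-ps1. Alternatives were a pseudocount of 0.1, centring, quantile normalization, no FPKM minimum, a minimum of 5, and Gstp1 and Gstp2 as 1 gene.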

Additional observations from a re-analysis of the deposited data

How the results depend on the processing

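Gstp2 was at least 2-fold lower and Gsta4 at least 2-fold higher under each alternative that kept Gstp1 and Gstp2 apart. With a pseudocount of 0.1 the number of members at least 2-fold lower became 2, since Gstm2 moved to -1.08. With Gstp1 and Gstp2 as 1 gene it became 0. The median log2 ratio of the members was -0.023 with a pseudocount of 0.1, -0.029 after centring, -0.025 after quantile normalization, -0.015 with no FPKM minimum and -0.015 with Gstp1 and Gstp2 as 1 gene. The ratio of Gstp1 and Gstp2 summed was -0.71 with a pseudocount of 0.1, -0.71 after centring and -0.70 after quantile normalization. Of the list medians 2 changed sign. Glutathione synthesis and turnover went to -0.025 with no FPKM minimum, where genes near 0 enter, and conjugate export went to -0.26 with a minimum of 5, where fewer genes are counted. Others kept their sign and moved by over 1.5 times. For the other cytosolic GSTs the median was -0.17 with a pseudocount of 0.1, -0.0024 after quantile normalization, -0.014 with no FPKM minimum and -0.0079 with a minimum of 5. For the other membrane family it was 0.79 with a pseudocount of 0.1, 0.34 with no minimum and 0.33 with a minimum of 5. With no minimum, the glutathione peroxidases had -0.055, conjugate export 0.014 and other detoxification -0.026. The glutaredoxin, thioredoxin and glyoxalase list had 0.14 with a minimum of 5, and the NRF2 regulators had 0.035 after quantile normalization. No scaling changed the sign of a member's ratio. The difference in the paternal share of G6pdx was 45.02 to 46.7 points with 1 library left out. With the replicate block it was 45.9 points (exact sign-flip p = 0.5, the smallest that 2 pairs allow). For total FPKM no paired analysis was possible because there is 1 value per group. The missing values per library are the main limit on every total RNA ratio, and none has an error.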
